A study of Mus musculus with 14 samples.

Results

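The 10 genes described here, of hepatic stellate cells and of fibrosis in mouse liver, were: Col1a1, Col1a2, Col3a1, Col4a1, Acta2, Des, Timp1, Tgfb1, Pdgfrb and Reln. They were taken as the array probes whose accession maps through RefSeq to these symbols, and all 10 of 10 were measured, among 21975 genes and unnamed transcripts tested. The livers came from 14 female B6C3F1 mice, bought at 5 to 6 weeks of age. Controls (n = 4) were gavaged with corn oil, the vehicle, and the treated mice received furan, a heterocyclic compound that the liver converts to a reactive dialdehyde, at 1 mg/kg (n = 5) or 8 mg/kg (n = 5) for 21 days. Every mouse, controls included, also drank BrdU, a thymidine analog, for 5 days before necropsy, and livers were taken 4 h after the last dose, so no group was free of BrdU. RNA of each liver was labelled with Cy5 and hybridised with a Cy3-labelled universal mouse reference RNA on one Agilent array.

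Stellate cells lie between the hepatocytes and the sinusoidal endothelium, where in healthy liver they store vitamin A as retinyl esters and carry desmin and reelin. After injury they can turn into contractile myofibroblasts, which gain alpha smooth muscle actin and secrete fibrillar collagens. TGF-beta is the main signal for matrix production and PDGF for proliferation, and inhibitors of metalloproteinases slow the breakdown of the matrix. Portal fibroblasts and vascular smooth muscle share many of these transcripts, so in whole liver none of the genes belongs to one cell type alone.

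No gene of the 10 differed between dose groups after adjustment over all genes, at either dose. The fibrillar collagens Col1a1 and Col3a1 were among the most variable transcripts on the arrays from mouse to mouse, with the widest spread at 1 mg/kg. Col1a1, Col1a2 and Col3a1 rose and fell together across mice by rank. Reln came nearest to a difference, with lower values at 8 than at 1 mg/kg. Of 228 genes tested in lists of related pathways and cell types, 11 passed at 8 mg/kg against control. That share was 4.82%, beside 4.09% of all genes. The basement membrane gene Nid1, the growth factor gene Pdgfa, the metalloproteinase gene Adamts1 and the TGF-beta family response genes Skil and Id1 rose. Mylk, the myosin light chain kinase gene, fell. Single markers of other liver cells also passed: Prom1, Krt23, Cd14 and Ctss rose and Cps1 fell. Their lists had medians of -0.02 for cholangiocytes, 0.09 for Kupffer cells and macrophages and 0.01 for hepatocytes. Krt23, Ctss and Cps1 were called in only 6, 4 and 9 of 28 alternatives. With 1 array left out the count of list genes that passed ran from 3 to 12, and with the replicate block in place of slide it was 1.

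The promoters of Col1a2, Col3a1 and Acta2 are shown because, across the mice, Col1a2 had a Pearson r of 0.88 with Col3a1 and of 0.93 with Acta2. Each is the stretch of 250 bases upstream of the transcription start in RefSeq's GRCm38.p6 table, given 5′ to 3′ on the gene's strand: Col1a2 at chr6:4505368-4505617 (+ strand), Col3a1 at chr1:45311288-45311537 (+ strand) and Acta2 at chr19:34255374-34255623 (- strand). Capitals mark matches on either strand to CCAAT (the core of NF-Y sites), to GGGCGG (the GC box of Sp1 family factors), to TATAAA (the TATA box) or to CAGAC (a core of SMAD sites).
Col1a2: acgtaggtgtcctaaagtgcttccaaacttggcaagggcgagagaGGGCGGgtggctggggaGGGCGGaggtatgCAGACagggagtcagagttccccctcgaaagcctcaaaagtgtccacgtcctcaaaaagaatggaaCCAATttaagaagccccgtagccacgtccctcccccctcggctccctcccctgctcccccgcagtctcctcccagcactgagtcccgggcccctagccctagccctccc
Col3a1: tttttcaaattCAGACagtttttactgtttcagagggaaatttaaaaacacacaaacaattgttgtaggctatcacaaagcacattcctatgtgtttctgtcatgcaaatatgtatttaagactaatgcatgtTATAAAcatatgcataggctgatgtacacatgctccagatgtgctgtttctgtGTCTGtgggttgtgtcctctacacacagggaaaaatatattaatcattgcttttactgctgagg
Acta2: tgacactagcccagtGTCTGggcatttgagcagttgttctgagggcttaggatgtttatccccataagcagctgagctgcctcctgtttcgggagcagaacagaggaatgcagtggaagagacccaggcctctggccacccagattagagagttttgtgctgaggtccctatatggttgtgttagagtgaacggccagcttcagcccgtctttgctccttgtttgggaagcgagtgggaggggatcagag
Col1a2 held 1 CCAAT, which begins 109 bases before the start, beside 2 matches to GGGCGG and 1 match to CAGAC. In Col3a1 there was 1 TATAAA, beginning 117 bases before the start, and 2 CAGAC, 1 on each strand. The Acta2 window held 1 CAGAC, on the reverse strand, and no match to the other motifs. The one motif found in all 3 windows was CAGAC, which 42.2% of all 32851 promoters of this length also hold. Promoters of 8 of the 10 genes were searched: Col1a1 had no entry among the promoters, and that of Pdgfrb was left out. Of the 8, 3 held CCAAT, 5 GGGCGG, 1 TATAAA and 3 CAGAC, counted as letters at any position in the window. The shares among all promoters, counted the same way, were 33.8% for CCAAT, 32.7% for GGGCGG and 12.4% for TATAAA. Such matches are not shown to be working sites. The CArG box, searched only as CCWWWWWWGG with W for A or T, was found in 0 of the 8 and in 1.47% of all promoters. The Acta2 window holds ccctatatgg and ccttgtttgg, which each differ from that pattern by 1 base and were not counted. The count of 0 therefore does not show that these promoters lack CArG-like sites.

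Each of the 10 genes had 1 probe, well above background in the liver channel on all 14 arrays. Probes well above background numbered 23062 to 29847 of 55681 per array. The arrays lay on 5 slides, 4 with 1 array of each group and the last with 1 array at 1 mg/kg and 1 at 8 mg/kg. Slide was the main axis of variation: of the variance along the first principal component, which took 30.7% of the total, 87.2% lay between slides. Values are therefore log2 ratios of liver over reference, and differences between groups come from limma with slide as a block, fitted to all 14 arrays. Because the reference is a pool of RNA from other cells, a ratio far below 0 says only that the reference holds more of that transcript, and ratios of different genes are not compared. The tissue label was checked against 12 hepatocyte markers, and all 12 were well above background on all 14 arrays. Of 23 stellate cell markers, 21 were detected on all 14 arrays, while Gfap, which encodes a glial filament protein often used to stain these cells, was detected on none. In RNA from whole liver, fewer cells of a type and less RNA per cell cannot be told apart.

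The 2 chains of type I collagen showed no difference between doses beyond the spread among mice. Col1a1 log2 ratios, in replicate order, were -5.39, -5.72, -5.30 and -5.86 in the controls, -5.59, -5.75, -6.13, -4.92 and -4.51 at 1 mg/kg, and -5.49, -5.65, -5.50, -5.39 and -5.23 at 8 mg/kg. The highest and the lowest of the 14 mice were both at 1 mg/kg, replicates 5 and 3, and the groups overlapped. The difference from control was 0.17 ± 0.24 (SE; 95% interval -0.35 to 0.68) at 8 mg/kg and 0.24 ± 0.24 (-0.27 to 0.75) at 1 mg/kg. Without control replicate 4 these estimates were -0.07 and 0.00059, and without replicate 2 at 8 mg/kg the first was 0.33. For Col1a2 the ratios were -4.22, -4.09, -4.19 and -4.37 in the controls, -4.34, -4.44, -4.33, -4.05 and -3.73 at 1 mg/kg, and -4.14, -4.32, -4.43, -4.45 and -3.76 at 8 mg/kg. Replicate 5 at each dose stood above all others, and the groups overlapped. The Col1a2 differences from control were 0.06 ± 0.15 at 8 mg/kg and 0.10 ± 0.15 at 1 mg/kg, and -0.01 and 0.03 without control replicate 4.

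Col3a1, which encodes type III collagen, an early component of reticular and scar fibres, had the largest estimate of the 10 against control at both doses. Its log2 ratios were -4.00, -3.93, -3.69 and -4.28 in the controls, -4.09, -3.58, -4.11, -3.24 and -2.79 at 1 mg/kg, and -3.72, -3.78, -3.59, -3.73 and -3.59 at 8 mg/kg. The 5 mice at 8 mg/kg lay close together near the upper end of the controls, whereas those at 1 mg/kg spanned nearly the whole range. The difference from control was 0.29 ± 0.21 (interval -0.16 to 0.74) at 8 mg/kg, with an adjusted p of 0.478, and 0.06 without control replicate 4. At 1 mg/kg it was 0.41 ± 0.21 (-0.04 to 0.86), with an adjusted p of 0.735, and 2 of 4 slides showed it. That estimate fell to 0.13 without replicate 5 at 1 mg/kg and to 0.18 without control replicate 4. Col4a1, a chain of the type IV collagen of basement membranes, ranged from -2.24 to -1.95 in controls, from -2.15 to -1.75 at 1 mg/kg and from -2.29 to -1.67 at 8 mg/kg, with overlapping groups. Its difference from control was 0.10 ± 0.12 at 8 mg/kg and 0.07 ± 0.12 at 1 mg/kg.

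**Figure D1:**
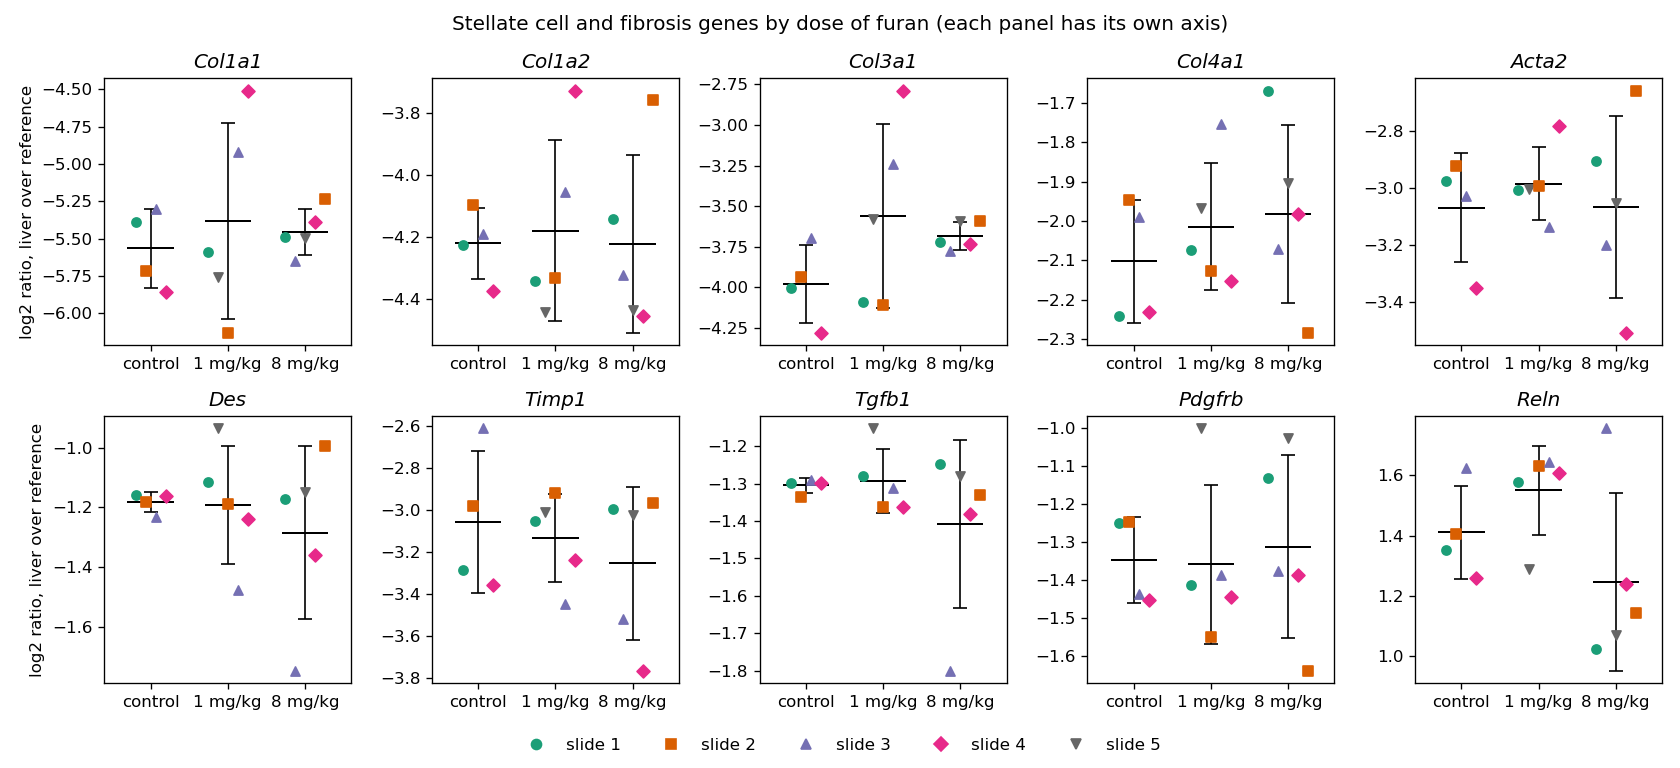
Log2 ratio of liver over reference (vertical axis, one scale per panel) for the 10 genes by dose; each point is 1 mouse, the symbol gives its slide, and bars show the group mean ± SD. The groups overlap in every panel, and the Col1a1 values at 1 mg/kg spread from -6.13 to -4.51.

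The cytoskeletal genes did not separate the groups either. Acta2, which encodes alpha smooth muscle actin, the usual marker of myofibroblasts, had log2 ratios of -2.98, -2.93, -3.03 and -3.35 in the controls, -3.01, -3.00, -2.99, -3.14 and -2.78 at 1 mg/kg, and -2.91, -3.20, -3.05, -3.51 and -2.66 at 8 mg/kg. Both the highest and the lowest of the 14 values belonged to mice at 8 mg/kg. The difference from control at 8 mg/kg was 0.01 ± 0.13 (interval -0.27 to 0.28), and at 1 mg/kg it was 0.09 ± 0.13. Des, the gene of the intermediate filament protein desmin, was close to its background in liver: the background-subtracted signal was 21.1 to 84.2 intensity units, averaged over its 10 spots. Its log2 ratios ran from -1.23 to -1.16 in controls, from -1.48 to -0.94 at 1 mg/kg and from -1.75 to -1.0 at 8 mg/kg. The controls were the tightest group and lay inside the range of both others. The Des difference from control was -0.15 ± 0.10 at 8 mg/kg and -0.06 ± 0.10 at 1 mg/kg. At 8 mg/kg it was -0.07 without replicate 2 of that dose and -0.04 without the 3 arrays of slide 3.

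Among the secreted regulators, Timp1, which encodes an inhibitor of matrix metalloproteinases and often rises in fibrosis, had log2 ratios of -3.28, -2.98, -2.61 and -3.35 in the controls, -3.05, -3.01, -2.92, -3.45 and -3.24 at 1 mg/kg, and -2.99, -3.52, -3.02, -3.77 and -2.97 at 8 mg/kg. At 8 mg/kg 3 mice lay near -3 and the other two were the lowest of all 14. The difference from control was -0.24 ± 0.16 (interval -0.58 to 0.10) at 8 mg/kg and moved to -0.02 without the 3 arrays of slide 3. Tgfb1, the gene of the profibrotic cytokine TGF-beta 1, gave -1.30, -1.33, -1.29 and -1.30 in the controls, -1.28, -1.15, -1.36, -1.31 and -1.36 at 1 mg/kg, and -1.25, -1.80, -1.28, -1.38 and -1.33 at 8 mg/kg. All mice but replicate 2 at 8 mg/kg lay between -1.38 and -1.15. On that array the reference channel of Tgfb1 was at 2181 intensity units above background, against 632 to 1165 on the other 13, and its normalized liver signal was the highest of the 14, at 8.35 on the log2 scale against 7.85 to 8.07. The Tgfb1 difference at 8 mg/kg was -0.14 ± 0.10, and -0.03 without that array. From the liver channel alone it was 0.05.

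Pdgfrb encodes a receptor for PDGF that stellate cells and other perivascular cells carry. Its log2 ratios were -1.25, -1.25, -1.44 and -1.45 in the controls, -1.41, -1.0, -1.55, -1.39 and -1.45 at 1 mg/kg, and -1.13, -1.38, -1.03, -1.39 and -1.64 at 8 mg/kg. The 2 highest mice were the pair on slide 5, 1 at each dose, and 71.4% of the variance of Pdgfrb lay between slides. The differences from control were -0.05 ± 0.09 at 8 mg/kg and -0.09 ± 0.09 at 1 mg/kg.

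Reln encodes reelin, a secreted glycoprotein that in liver is made by stellate cells. Its log2 ratios were 1.35, 1.40, 1.63 and 1.26 in the controls, 1.58, 1.29, 1.63, 1.64 and 1.61 at 1 mg/kg, and 1.02, 1.76, 1.07, 1.24 and 1.14 at 8 mg/kg. At 8 mg/kg 4 of the 5 mice lay below all controls and all mice at 1 mg/kg, and replicate 2 was the highest of the 14. The reference channel of this probe was well above background on 0 of 14 arrays, so the distance of the ratio from 0 is only a bound and the reference adds noise to it. Its liver signal was low as well, at 43 to 138 intensity units above background, from 1 spot per array. Against control, Reln differed by -0.11 ± 0.10 at 8 mg/kg and by 0.19 ± 0.10 at 1 mg/kg (higher in 4 of 4 slides, unadjusted p = 0.078, adjusted p = 0.741). From the liver channel alone these differences were -0.20 and -0.0094. At 8 against 1 mg/kg the difference was -0.30 ± 0.09 (interval -0.50 to -0.10) and Reln was lower in 4 of 5 slides, with an unadjusted p of 0.00577 and an adjusted p of 0.0757 over all genes in limma. The adjusted p fell to 0.0271 without replicate 2 at 8 mg/kg, where the difference was -0.39, and to 0.0411 without replicate 4 at 1 mg/kg, where it was -0.38. Without the 3 arrays of slide 3, which include both, the difference was -0.41 with an adjusted p of 0.0281. The liver channel alone gave -0.19 with an adjusted p of 0.192.

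Marker lists of several liver cell types had medians below 0 in the same comparison. At 8 against 1 mg/kg the median difference was -0.14 over 21 quiescent stellate cell markers, which include Reln, with 4 of them above 0, and -0.20 over 18 sinusoidal endothelial markers, with 0 above 0. It was -0.10 over 15 Kupffer cell and macrophage markers (4 above 0) and -0.09 over 12 hepatocyte markers (1 above 0). Portal fibroblast and mesothelial markers had a median of -0.14 and vascular smooth muscle markers one of -0.14, each with 0 of 13 above 0. For 11 cholangiocyte markers the median was -0.02, with 4 above 0. Over all genes it was -0.02, with 43.6% above 0. Averaged over its genes, each centred on its own mean, the endothelial list ranged from -0.13 to 0.28 in controls, from -0.16 to 0.34 at 1 mg/kg and from -0.31 to 0.27 at 8 mg/kg, and 19 of 19 markers were detected on all 14 arrays. These ranges keep slide effects. On slides 1 to 3 the list was at -0.11, -0.31 and 0.27 at 8 mg/kg, against 0.12, -0.16 and 0.31 at 1 mg/kg. On slides 4 and 5 it was at -0.12 and -0.23, against 0.34 and -0.05. Every slide thus had the lower value at 8 mg/kg. The part of these cells in the Reln values was not tested. At 1 mg/kg against control the stellate cell list had a median of 0.18, with 19 of 21 markers above 0, beside 0.03 and 60.5% over all genes, and 0 of the 21 passed the adjusted threshold. The Kupffer cell list had a median of 0.18 there, with 13 of 15 above 0, and the endothelial list 0.14, with 16 of 18. Averaged over its genes, the stellate cell list ranged from -0.23 to 0.34 in controls and from -0.14 to 0.27 at 1 mg/kg. The mice of these groups thus overlapped before slide effects were removed, and the highest of the 14 was control replicate 3. Within slides 1 to 4 the list was at 0.15, -0.14, 0.27 and 0.17 at 1 mg/kg. In the controls of those slides it was at -0.19, -0.10, 0.34 and -0.23.

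The count of genes past the adjusted threshold of 0.05 was 0 of 10 in each comparison. Over all genes the share was 4.09% at 8 mg/kg against control, 0% at 1 mg/kg against control and 5.29% between the doses. By direction, 2.73% of all genes were higher and 1.36% lower at 8 mg/kg than in control, and 2.41% were higher and 2.88% lower at 8 than at 1 mg/kg. At an unadjusted p below 0.05 the counts were 0, 0 and 1 of the 10, against 20.3%, 6.9% and 21.4% of all genes. At 8 mg/kg 5 of the estimates were above 0 and 5 below, with a median of -0.02, and over all genes the median was 0.00 with 50.6% above 0. Groups that do not overlap were found for 0 of the 10 in each comparison, against 5.59%, 0.828% and 3.61% of all genes. How far the data reach is given by the intervals: the 95% interval of 8 of the 10 stayed within a 1.5-fold difference at 8 mg/kg against control, of 8 at 1 mg/kg and of 10 between the doses. All 10 stayed within a 2-fold difference in each comparison. These intervals are for ratios computed with an intensity offset of 50, which draws the ratios of dim probes, such as Des and Reln, toward 0. For such probes they do not bound the fold difference in RNA. The Reln estimate at 1 mg/kg against control ran from -0.0094 to 0.79 over the 28 alternatives, beside an upper bound of 0.41 here. The highest upper bounds against control were 1.67-fold at 8 mg/kg and 1.81-fold at 1 mg/kg, both for Col3a1, and the lowest lower bound was 0.669-fold, for Timp1 at 8 mg/kg. A p-value above the threshold does not show that the groups were equal, and a difference inside its interval is not excluded for any of these genes.

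**Figure D2:**
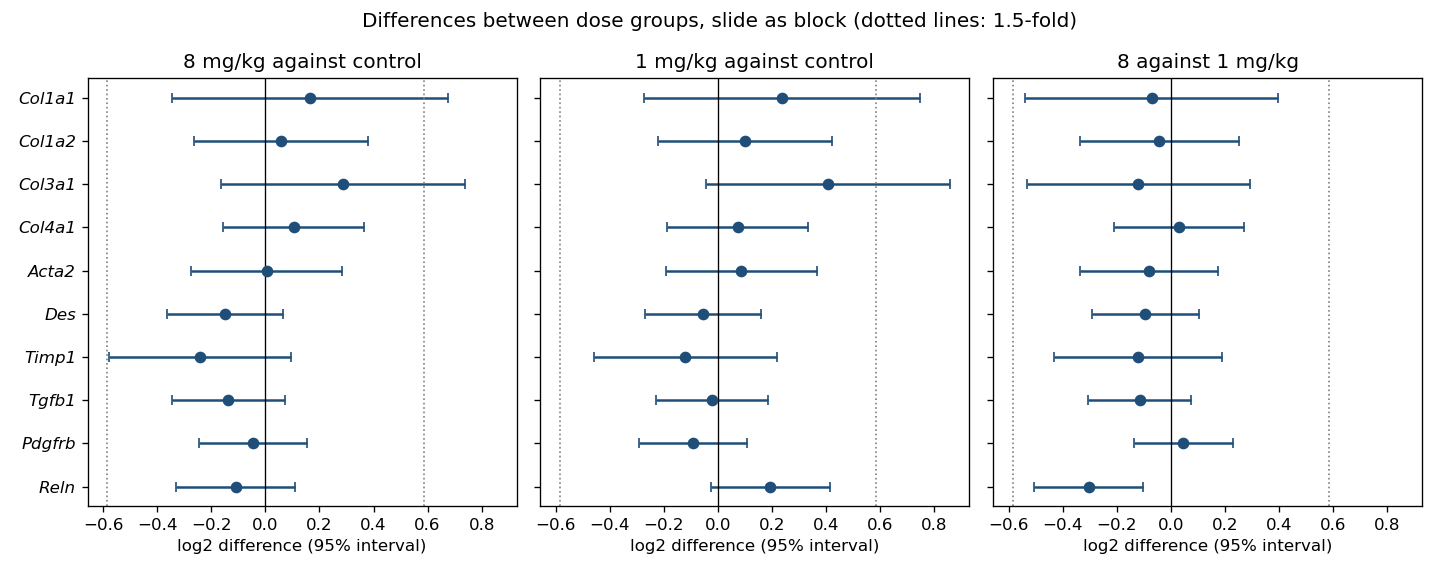
Log2 difference between groups for the 10 genes (horizontal axis; points are limma estimates with slide as a block, bars their 95% intervals, dotted lines a 1.5-fold difference). Every interval against control includes 0, and between the doses the interval of Reln, from -0.50 to -0.10, lies below it.

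The collagens varied widely among mice of the same dose, Col1a1 and Col3a1 most of all at 1 mg/kg. Before slide effects were removed, the SD of Col1a1 was 0.26 in controls, 0.66 at 1 mg/kg and 0.15 at 8 mg/kg. For Col3a1 these were 0.24, 0.57 and 0.09. After removal of slide and dose effects the residual SD of Col1a1 was 0.47 on the log2 scale, at percentile 99.2 of all genes, whose median was 0.14. Col3a1 followed at 0.41 (percentile 98.7), Timp1 at 0.29 (95.7), Col1a2 at 0.27 (94.4) and Acta2 at 0.23 (88.3). Col4a1 was at 0.21 (83.4). Reln, Des, Tgfb1 and Pdgfrb lay between 0.13 and 0.15, from percentile 36.1 to 55.9. Col4a1, Acta2, Des and Tgfb1 are each printed 10 times per array and the others once, and the median SD among those spots was between 0.05 and 0.11. The spread between mice was larger than that between spots of an array for Acta2, 0.23 against 0.05, and Col4a1, 0.21 against 0.08. For Tgfb1 these were 0.14 and 0.08, and for Des 0.15 and 0.11. These are SDs of single spots, whereas the value of a mouse is the mean of the spots. On any array the SE of that mean was at most 0.032 for Acta2, 0.040 for Col4a1, 0.048 for Tgfb1 and 0.058 for Des. Spots of an array share 1 labelling and hybridisation, so their spread does not measure all technical noise. Dose took 5.73% of the variance of Col1a1 and 18.9% of that of Col3a1, and slide took 21.0% and 19.2%.

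Col1a1, Col1a2 and Col3a1 varied together across the 14 mice by rank. Log2 ratios were centred within each slide, and each of the 45 pairs was tested by all 2592 permutations within slides, two-sided, with p-values adjusted over the 45 pairs. Col1a1 and Col3a1 had a Pearson r of 0.93 (exact permutation p = 0.00309, adjusted p = 0.0625) and a Spearman rho of 0.88 (adjusted p = 0.0347). Both chains of type I collagen, Col1a1 and Col1a2, gave r = 0.91 (exact permutation p = 0.00617, adjusted p = 0.0625) and rho = 0.95 (adjusted p = 0.0347). The pair Col1a2 and Col3a1 gave r = 0.88 (exact permutation p = 0.00694, adjusted p = 0.0625) and rho = 0.90 (adjusted p = 0.0347). Col1a2 and Acta2 gave r = 0.93 (exact permutation p = 0.00617, adjusted p = 0.0625) and rho = 0.89 (adjusted p = 0.108). For Acta2 r was 0.78 with Col1a1 (exact permutation p = 0.0818, adjusted p = 0.460) and 0.79 with Col3a1 (exact permutation p = 0.111, adjusted p = 0.464), and without centring on slide these were 0.29 and 0.34. Without that centring r was 0.70 for Col1a1 with Col1a2, 0.86 for Col1a1 with Col3a1, 0.60 for Col1a2 with Col3a1 and 0.72 for Col1a2 with Acta2. Without the 3 arrays of slide 3 r was 0.91 for Col1a1 with Col1a2, 0.93 for Col1a1 with Col3a1 and 0.87 for Col1a2 with Col3a1. Each of these then had an adjusted p of 0.3125 by exact permutation. By Pearson's r 0 of the 45 pairs passed the adjusted threshold, and by Spearman's rho 3 did, all among these collagens.

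Leaving out the 2 mice farthest from the median of the first gene left r at 0.84 for Col1a1 with Col3a1, 0.87 for Col1a1 with Col1a2, 0.74 for Col1a2 with Col3a1, 0.82 for Col1a2 with Acta2, 0.60 for Col1a1 with Acta2 and 0.59 for Col3a1 with Acta2. With values centred on slide and dose group, r for Col1a1 with Col3a1 was 0.94 and its adjusted p 0.0174, the 1 pair that passed by Pearson's r under that setting. Des and Tgfb1 gave r = 0.82 (exact permutation p = 0.00579, adjusted p = 0.0625) and rho = 0.79 (adjusted p = 0.127). Without the 2 extreme mice, replicate 2 at 8 mg/kg and control replicate 3, r was 0.49, and without all 3 arrays of slide 3, which include both, it was 0.75 (exact permutation p = 0.0741, adjusted p = 0.491). Col4a1 went with neither type I chain: its r with Col1a1 was 0.08. Over the 45 pairs r was positive for 29, with a median of 0.10.

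**Figure D3:**
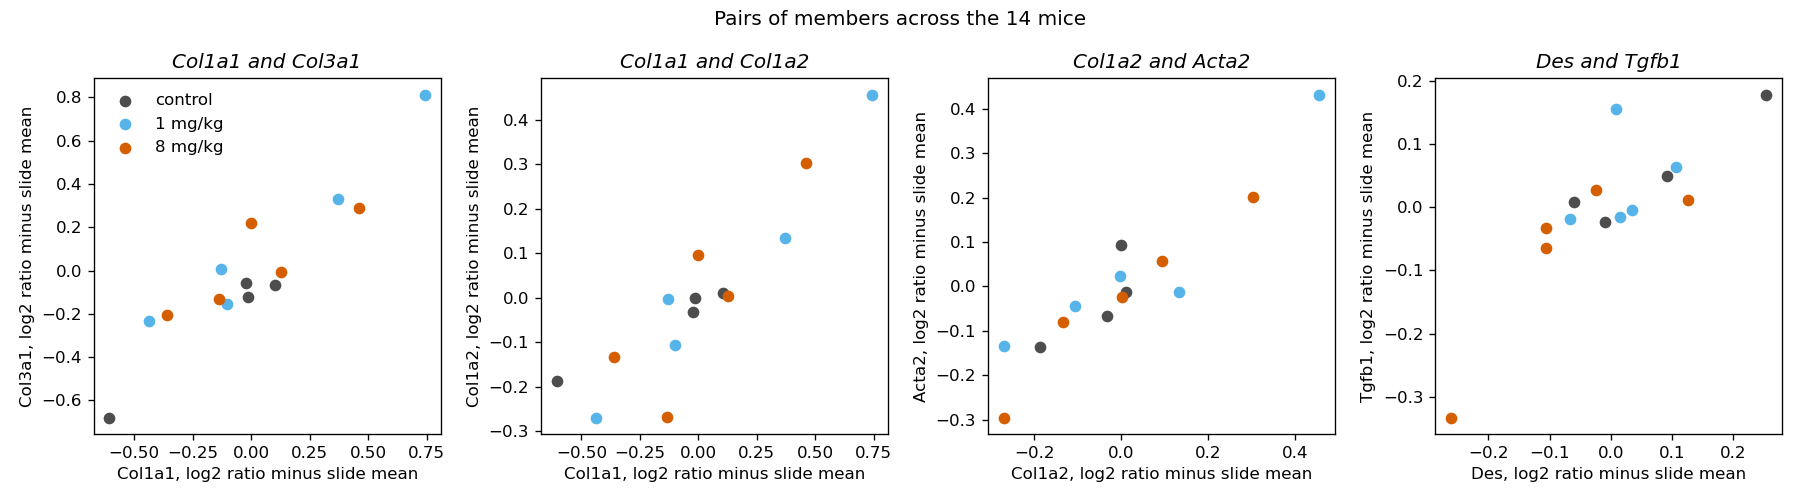
Log2 ratio minus the slide mean of one gene against another for the 14 mice, coloured by dose, in 4 pairs. Mice of all 3 groups lie along the diagonal for the collagens and for Col1a2 with Acta2, and for Des and Tgfb1 r is 0.82, 0.49 without the 2 extreme mice and 0.75 without slide 3.

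The genes whose residual pattern over the 14 arrays was most like each member, among 13762 named genes, are given as a description without p. Acta2 was followed most closely by the contractile genes Cnn1 (r = 0.99), Tnnt2 (0.98) and Tpm4 (0.98). Of the 12 other vascular smooth muscle markers, Actg2 (0.96), Tagln (0.95), Synpo2 (0.94), Myh11 (0.82) and Smtn (0.75) also lay close to it, whereas Des (0.45), Rgs5 (0.39), Cspg4 (0.34), Notch3 (0.13), Mcam (0.05) and Mylk (-0.30) lay farther away, beside a median of 0.11 over all genes. Col1a2 was nearest to Pea15a (0.98), Cavin3 (0.98) and Emp1 (0.97), and Acta2 ranked 11 among its likenesses. Otud1 was among the nearest 3 of both Col1a1 (0.96, beside Ctsh at 0.96 and Fxyd6 at 0.95) and Col3a1 (0.99, beside Sdhaf3 at 0.96 and Sh3bgr at 0.95), with Col1a1 itself at rank 4 for Col3a1. Timp1 was nearest to Gm12250 (0.97), Tchh (0.96) and Blvra (0.95), and Reln to Rb1cc1 (0.97), Cul9 (0.97) and Stambp (0.96). For Des they were Zfp646 (0.97), Rasip1 (0.96) and Nadk (0.96), and for Tgfb1 BC051019 (0.97), Ruvbl1 (0.97) and Six5 (0.97). Pdgfrb was nearest to Irf5 (0.94) and Leprotl1 (0.93), and Col4a1 to Eqtn (0.95), Nhlrc3 (0.94) and Dpagt1 (0.93). After slide and dose were removed, 7 residual degrees of freedom remained behind each of these values, and all arrays share the same reference RNA.

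Markers of myofibroblasts, of other fibroblastic cells and of macrophages moved with Col1a1, Col1a2 and Col3a1, and less closely so did sinusoidal endothelial and hepatocyte markers. The median residual r of Col1a2 was 0.82 with the other fibrillar and associated collagens, 0.69 with portal fibroblast and mesothelial markers, 0.64 with vascular smooth muscle markers and 0.27 with quiescent stellate cell markers, against 0.10 with all genes. For Col1a1 the same medians were 0.68, 0.62, 0.46 and 0.11, and for Acta2 0.79, 0.71, 0.60 and 0.27. With myofibroblast and activation markers the median was 0.50 for Col1a1, 0.63 for Col1a2, 0.52 for Col3a1 and 0.56 for Acta2. With sinusoidal endothelial markers it was 0.22, 0.30, 0.36 and 0.38 in the same order. With 15 Kupffer cell and macrophage markers the median was 0.50 for Col1a1 (14 positive), 0.43 for Col1a2, 0.56 for Col3a1 and 0.46 for Acta2 (15 positive for each of these). That list ranged from -0.30 to 0.32 in controls, from -0.20 to 0.50 at 1 mg/kg and from -0.18 to 0.46 at 8 mg/kg, and of its 17 markers 14 were detected on all 14 arrays and Ccr2 on none. The list ranges in this paragraph keep slide effects, and the highest macrophage value of each group was on slide 3. Averaged over its 13 tested genes, each centred on its own mean, the smooth muscle list ranged from -0.17 to 0.00 in controls, from -0.04 to 0.49 at 1 mg/kg and from -0.29 to 0.18 at 8 mg/kg. The top value was in replicate 5 at 1 mg/kg, which also had the highest Col1a1, Col1a2 and Col3a1. Of 16 smooth muscle markers listed, 9 were detected on all 14 arrays and Kcnmb1, Lmod1 and Pln on none. The portal fibroblast list, 13 of 18 genes tested, ranged from -0.17 to 0.09 in controls, from -0.13 to 0.37 at 1 mg/kg and from -0.28 to 0.04 at 8 mg/kg, with Lrrn4 and Upk1b detected on none. The part of such cells in the collagen values was not tested. With the 12 hepatocyte markers the median r was 0.58 for Des, 0.58 for Tgfb1 and -0.59 for Reln. It was 0.25 for Col1a1, 0.36 for Col1a2, 0.26 for Col3a1 and 0.32 for Acta2, beside 0.10 to 0.11 with all genes.

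**Figure D4:**
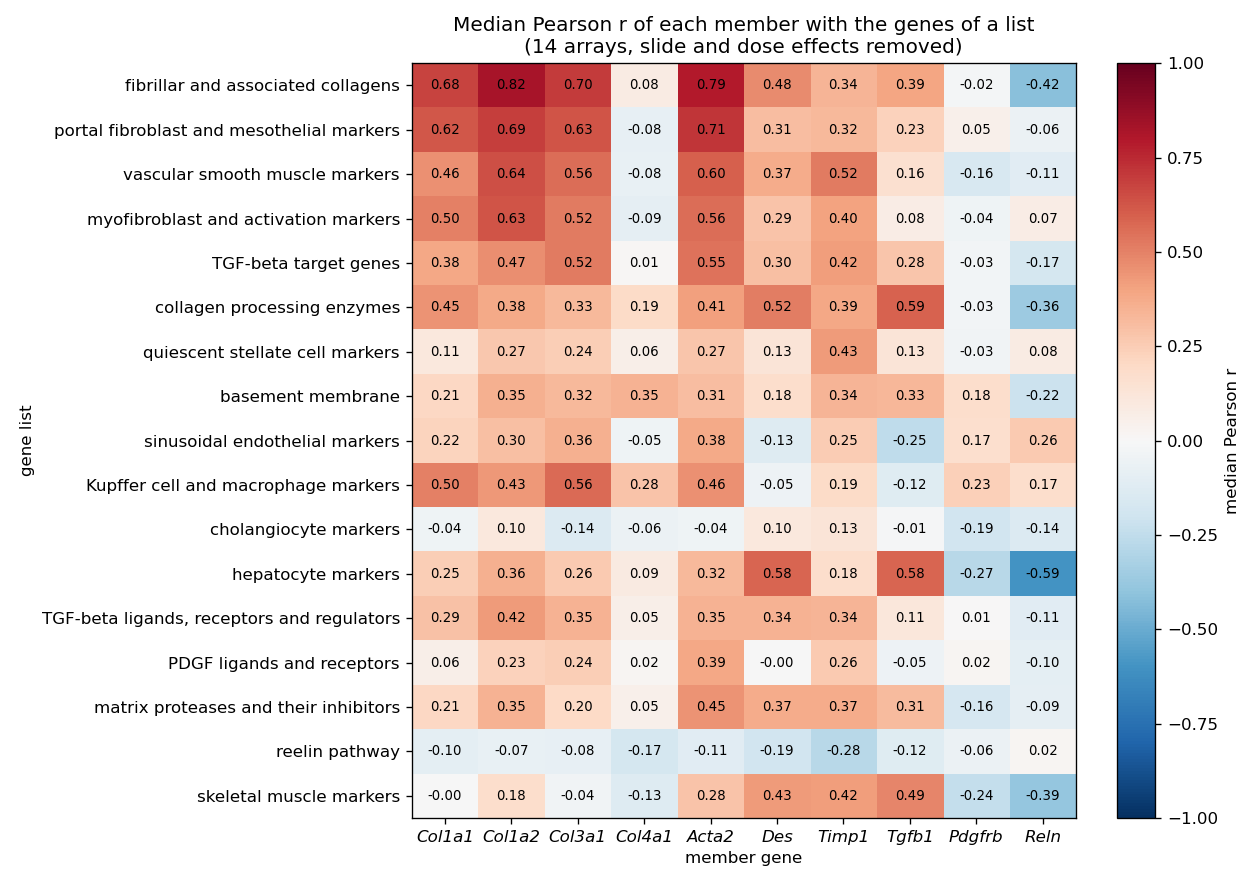
Median Pearson r, over 14 arrays with slide and dose effects removed, between each of the 10 genes (columns) and the genes of 17 lists (rows), the gene itself left out. The rows of collagens and of portal fibroblast markers are highest for Col1a1, Col1a2, Col3a1 and Acta2, up to 0.82, and Col4a1 and Pdgfrb lie between -0.08 and 0.08 there.

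The wider pathways were followed with 17 gene lists that hold 275 genes, of which 228 were tested. At 8 mg/kg against control 11 of the 228 passed (4.82%, beside 4.09% of all genes), 9 of them higher and 2 lower. At 1 mg/kg 0 passed (0 of all genes as well; 6.9% of all genes had an unadjusted p below 0.05), and between the doses 10 passed (4.39%, beside 5.29%), 7 higher and 3 lower at 8 mg/kg. The count at 8 mg/kg against control was 6 without control replicate 1, 4 without control replicate 2, 7 without replicate 2 at 1 mg/kg or replicate 3 at 8 mg/kg, and 3 without control replicate 3, replicate 1 at 8 mg/kg or replicate 5 at 8 mg/kg. Between the doses it was 4 without replicate 1 at 1 mg/kg and 6 without replicate 2, and at 8 mg/kg it was 4 without replicate 1, 6 without replicate 3 and 4 without replicate 5.

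In the lists of fibrillar collagens, their processing and myofibroblasts no gene passed at 8 mg/kg: 0 of 9 fibrillar and associated collagens, 0 of 21 collagen processing enzymes and 0 of 27 myofibroblast and activation markers passed. Their median log2 differences were 0.10, -0.03 and 0.07, beside 0.00 over all genes. Among companions of the collagens, Col5a1, a chain of type V collagen that starts fibrils, differed by 0.10 ± 0.09, and Serpinh1, the collagen chaperone, by -0.16 ± 0.13. Col5a2 was well above background on 2 arrays and the crosslinking enzyme gene Lox on 0, so neither was tested. Markers of activation did not pass either: Tagln, encoding the actin-binding protein transgelin, gave 0.10 ± 0.12, Myl9, a myosin light chain gene, 0.15 ± 0.20, and Spp1, the osteopontin gene, -0.01 ± 0.11.

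Of the 21 quiescent stellate cell markers tested, 0 passed at 8 mg/kg against control, where 2 of them had an unadjusted p below 0.05, and the list median was -0.02. Lrat, the enzyme gene that esterifies retinol for storage, did not pass against control at either dose, with -0.33 ± 0.17 at 8 mg/kg and 0.31 ± 0.17 at 1 mg/kg. At 8 against 1 mg/kg it fell by 0.64 ± 0.15 (adjusted p = 0.029), a call that held in 15 of 28 alternatives. Lrat ratios were 2.47, 2.50, 3.27 and 2.34 in the controls, 3.03, 2.65, 2.44, 3.32 and 3.35 at 1 mg/kg, and 2.26, 2.40, 2.64, 2.29 and 1.99 at 8 mg/kg. Its 2 dose groups overlapped, through replicate 3 at 1 mg/kg. Hgf, the hepatocyte growth factor gene, differed from control by 0.23 ± 0.10 at 8 mg/kg, with an adjusted p of 0.234. Pdgfra, the other PDGF receptor, was at 0.05 ± 0.08.

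**Figure D5:**
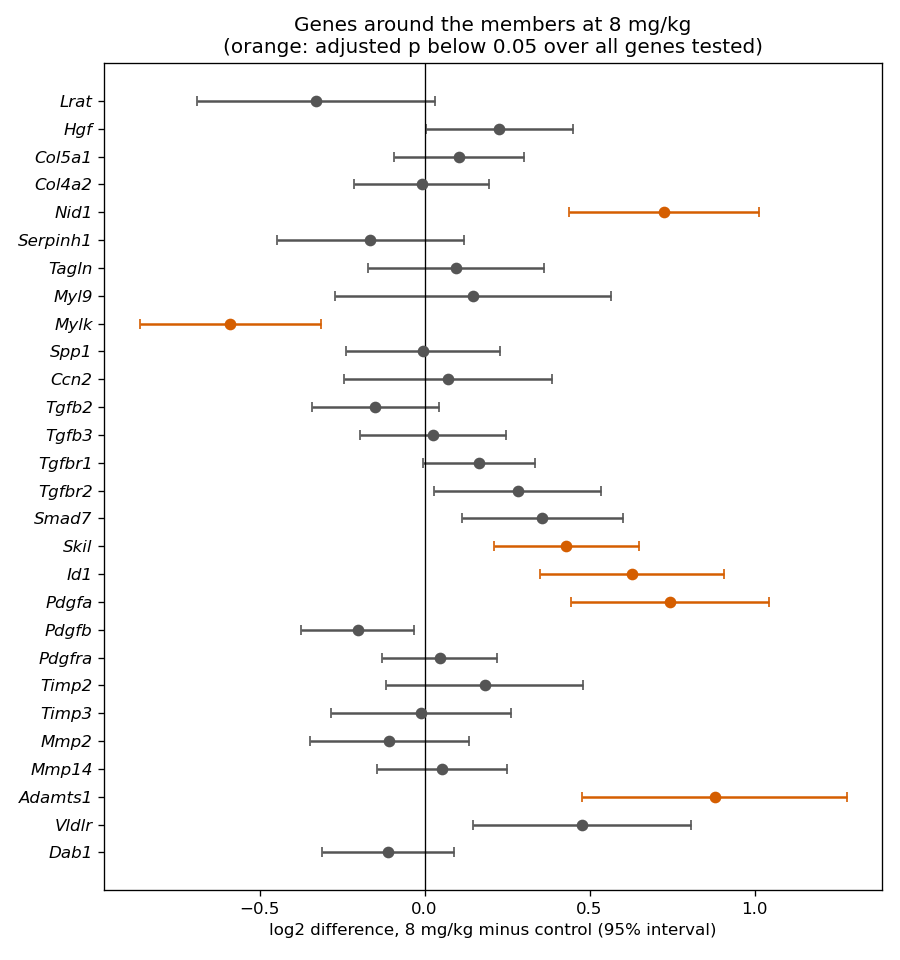
Log2 difference at 8 mg/kg against control (horizontal axis; points are limma estimates, bars 95% intervals) for genes around the members; orange marks an adjusted p below 0.05. Nid1, Skil, Id1, Pdgfa and Adamts1 lie above 0 and Mylk below it.

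In the TGF-beta lists the ligands and receptors did not pass at 8 mg/kg: Tgfb2 was at -0.15 ± 0.09, Tgfb3 at 0.02 ± 0.10, Tgfbr1 at 0.17 ± 0.08 and Tgfbr2 at 0.28 ± 0.12. Of 24 ligands, receptors and regulators 1 rose, and of 18 target genes 2 rose, with medians of 0.05 and 0.09. They were Skil, a SMAD corepressor gene that is in both lists, at 0.43 ± 0.10 (adjusted p = 0.0331, called in 15 of 28 alternatives), and Id1, an inhibitor of differentiation best known as a target of BMP signalling, at 0.63 ± 0.13 (adjusted p = 0.0179, called in 20 of 28). Smad7, the inhibitory SMAD gene, was at 0.36 ± 0.11 with an adjusted p of 0.0976 against control, and rose by 0.44 ± 0.10 between the doses (adjusted p = 0.0265, called in 18 of 28). Ccn2, the connective tissue growth factor gene and a target often used to follow fibrosis, did not pass, at 0.07 ± 0.15. The members Col1a1, Col1a2, Col3a1, Acta2 and Timp1 belong to the target list too.

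Among 6 PDGF genes tested, Pdgfa rose and the median was 0.06. The ratios of this ligand gene were -1.84, -2.19, -1.54 and -1.81 in the controls, -1.75, -2.18, -1.60, -1.98 and -1.53 at 1 mg/kg, and -1.21, -0.77, -1.45, -1.34 and -1.15 at 8 mg/kg. Every mouse at 8 mg/kg lay above every other mouse. Pdgfa rose by 0.74 ± 0.14 against control (adjusted p = 0.011, called in 25 of 28 alternatives) and by 0.62 ± 0.13 against 1 mg/kg (adjusted p = 0.0147). Pdgfb, whose product is the strongest ligand of the receptor encoded by Pdgfrb, was at -0.20 ± 0.08 with an adjusted p of 0.17.

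In the basement membrane list 1 of 17 genes rose at 8 mg/kg, with a median of -0.01. It was Nid1, which encodes nidogen 1, the link between laminin and type IV collagen. Its ratios were -2.59, -2.37, -2.45 and -2.54 in the controls, -2.18, -2.51, -2.53, -2.11 and -2.24 at 1 mg/kg, and -1.26, -1.69, -1.95, -2.17 and -1.94 at 8 mg/kg. Mice at 8 mg/kg were all above the controls and overlapped with those at 1 mg/kg through replicate 4. Nid1 rose by 0.72 ± 0.13 against control (adjusted p = 0.00986, called in 27 of 28 alternatives), whereas Col4a2, the partner chain of Col4a1, was at -0.01 ± 0.09.

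Of 16 matrix proteases and inhibitors tested, 1 rose at 8 mg/kg, with a median of -0.06. This was Adamts1, a secreted metalloproteinase gene, at 0.88 ± 0.19 (adjusted p = 0.0203, called in 19 of 28 alternatives). Its 4 controls lay between -2.33 and -1.90, the mice at 1 mg/kg between -2.19 and -2.01, and those at 8 mg/kg between -1.90 and -0.60. The companions of Timp1 did not pass, with Timp2 at 0.18 ± 0.14, Timp3 at -0.01 ± 0.13, Mmp2, a gelatinase gene, at -0.11 ± 0.11 and Mmp14, the gene of its membrane-bound activator, at 0.05 ± 0.09. In the reelin pathway 0 of 6 passed and the median was 0.03. Vldlr, a reelin receptor gene that also serves lipoprotein uptake, was at 0.48 ± 0.15 with an adjusted p of 0.101, and Dab1, the adaptor gene downstream of the receptor, at -0.11 ± 0.09.

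Of the lists for other cells, the 13 vascular smooth muscle markers held 1 call at 8 mg/kg against control, and the median was -0.05. Mylk fell by 0.59 ± 0.13 (adjusted p = 0.0225, called in 18 of 28 alternatives), from 1.41, 1.46, 1.38 and 1.21 in the controls to 0.61, 0.62, 0.98, 1.11 and 0.65 at 8 mg/kg, with no overlap. Of 11 cholangiocyte markers 2 rose, Prom1 by 1.24 ± 0.15 (called in 27 of 28) and the keratin gene Krt23 by 0.87 ± 0.22 (6 of 28), and the list median was -0.02. Among 15 Kupffer cell and macrophage markers 2 rose, Cd14 by 0.44 ± 0.10 (called in 17 of 28) and Ctss by 0.39 ± 0.10 (4 of 28), with a median of 0.09. Of 12 hepatocyte markers Cps1 fell by 0.34 ± 0.08 (called in 9 of 28), and the median was 0.01. Portal fibroblast and mesothelial markers had 0 of 13 calls and a median of -0.10, sinusoidal endothelial markers 0 of 18 and -0.05, and skeletal muscle markers 0 of 7 and -0.15. Between the doses the endothelial gene Bmp2 fell by 0.53 ± 0.14 (adjusted p = 0.0478, called in 6 of 28) and the mesenchymal gene Clec3b by 0.34 ± 0.08 (adjusted p = 0.0281, called in 17 of 27). Adamts1, Id1, Nid1, Skil and Prom1 also rose between the doses, by 0.94, 0.60, 0.51, 0.44 and 1.13, and were called there in 27, 25, 15, 19 and 27 of 28 alternatives.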

How the data were processed

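Per the labels, the 14 two-colour arrays all carried liver RNA in the Cy5 channel and universal mouse reference RNA in the Cy3 channel. The authors deposited scanner files with spot and background intensity in both channels, read with Feature Extraction 10.7.3.1 per the file headers. They also deposited a table of normalized values, a linear ratio of liver over reference: its log2 values correlated at 0.992 to 0.995 with those computed here, with slopes of 1.01 to 1.03 and column medians of 0.976 to 0.990. It served as an alternative, and the steps behind it are not stated in the labels or headers used.

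Median spot intensity was corrected by normexp (offset 50) and normalized by loess within arrays in limma 3.58.1 (R 4.3.3), with control spots at weight 0 and 178 to 336 outlier spots per array left out. No spot was saturated (0 on each array). Accessions were matched to RefSeq (GRCm38.p6), which named 26413 of 55681 probes. A probe was tested if well above background in the liver channel on 4 or more arrays, and the brightest probe stood for a gene. Groups were compared with lmFit and eBayes on all 14 arrays with slide as a fixed block, Benjamini-Hochberg adjustment over all 21975 features and a threshold of 0.05. The fit was tested on simulated data first. Permutations used scipy 1.17.1.

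The 10 genes and the lists were chosen with earlier results of these data known. Named are the 10 genes, list genes past the threshold in any comparison, 25 companions set with the lists (2 of them not measured well enough to test), and the 3 genes nearest to each of the 10. The results of a few of these genes are not reported here, and the lists and their counts leave out those that were list genes, a change made after the values were seen. The summary of likeness by list, the promoters shown and their window of 250 bases were chosen after the values were seen. The groups are separate mice, named as biological replicates in the labels. Replicate numbers do not pair the mice: on different slides, mice with the same number had deviations from the group means with a median correlation of -0.14 (-0.42 to 0.23). Alternatives covered slide, background, normalization, filters, probes, the deposited table and each array left out.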

Additional observations from a re-analysis of the deposited data

Results flagged for a closer look

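In groups of 4 or 5 mice a value is listed here when its gap to the nearest other mouse exceeded Dixon's critical share of the group's range, which chance alone does for about 1 group in 20. Of 30 groups of the 10 genes, 2 held such a mouse, and of 105 groups of the list genes named in the text, 3 did. Tgfb1 was at -1.80 in replicate 2 at 8 mg/kg, with the other mice of that dose between -1.38 and -1.25. Reln was at 1.29 in replicate 2 at 1 mg/kg, with the others between 1.58 and 1.64. Lrat was at 3.27 in control replicate 3, with the others between 2.34 and 2.50. Hgf was at 1.88 in replicate 2 at 8 mg/kg (others 1.23 to 1.36), and Myl9 at -2.31 in replicate 5 at 1 mg/kg (others -3.47 to -3.22). All these values keep slide effects. Replicate 2 at 8 mg/kg and control replicate 3 were on slide 3, and replicate 2 at 1 mg/kg was on slide 5. On slide 3 Lrat was also 3.32 at 1 mg/kg but 2.40 at 8 mg/kg. Hgf there was 1.55 in the control and 1.52 at 1 mg/kg. Replicate 2 at 8 mg/kg, control replicate 3 and replicate 5 at 1 mg/kg also held extreme values of Des, Timp1 or the collagens. The cause was not tested.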

How the results depend on the processing

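None of the 10 genes passed at 8 or at 1 mg/kg against control under any of the 28 alternatives. Between the doses 1 gene, Reln, passed without the 3 arrays of slide 3, and with 1 array left out the count was 0 to 1. Over the 28 alternatives the Reln difference lay between -0.61 and -0.19 and its adjusted p between 0.0271 and 0.404. With the replicate block in place of slide, 0 of the 10 passed and the adjusted p of Reln was 0.404; list genes called fell from 11 to 1 at 8 mg/kg against control and from 10 to 1 between the doses, and all genes called from 898 to 122 and from 1163 to 150. The list genes called were 5 and 2 with no slide in the model, 4 and 5 from the scanner's processed signals, 5 at 8 mg/kg against control with only the groups compared, 7 there with a normexp offset of 16, and 3 there without slide 3. With 1 array left out they were 3 to 12 against control and 4 to 11 between the doses. Of the pairs of members, 0 passed by Pearson's r and 1 passed with values centred on slide and dose group. Spearman's rho was computed only with the main settings, so the 3 pairs that passed by rank were not checked under any alternative. From the scanner's processed signals Pearson's r was 0.87 for Col1a1 with Col1a2, 0.93 for Col1a1 with Col3a1 and 0.78 for Col1a2 with Col3a1. Their adjusted permutation p-values were 0.231, 0.0868 and 0.499. The cause of these differences was not tested, except that fewer arrays enter where arrays are left out. Des is limited by its signal over background, and Reln by a low liver signal and a reference signal not well above background. Without a dye swap each ratio keeps its dye bias.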
